A study of Mus musculus with 12 samples.

Results

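A set of 10 genes of the BCL2 family was followed, taken from the deposited tables by gene symbol alone: the BH3-only genes Bmf, Bcl2l11, Bbc3 and Pmaip1, the pro-survival genes Bcl2, Bcl2l1, Mcl1 and Bcl2a1b, and the effector genes Bax and Bak1. They are 10 of the 55487 genes in the table, and all 10 passed the filter on low counts that left 15905 genes for testing. The groups were naive CD4+ T cells, sorted as CD62L+CD44lo, and effector CD4+ T cells, sorted as CD62L-CD44hi, each from wild type (WT) and Rinl-deficient (KO) animals. The cells came from spleen and peripheral lymph nodes, were taken directly ex vivo with no treatment named, and gave 3 libraries per group and 12 in all. Strain, age, the Rinl allele and any pooling of animals were not stated in the labels. Since no label ties a library to its own mouse, p-values measure the spread between these libraries, which may be technical.

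The BCL2 family controls the permeability of the outer mitochondrial membrane, and with it the mitochondrial route to apoptosis. Bax and Bak1 proteins form the pores, the pro-survival proteins hold them and the BH3-only proteins in check, and BH3-only proteins start the process by binding pro-survival proteins or the effectors through a short helix called the BH3 domain. In T cells the pathway is known for removing autoreactive thymocytes and for ending immune responses when survival cytokines are withdrawn. Much of its regulation is at the level of protein, which was not measured here.

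A short coding pattern that 9 of the 10 members share is shown first. A pattern of codons for leucine, any 3 residues, alanine or glycine, and aspartate, which is the core of the BH3 domain, was searched in frame in the GENCODE M21 transcript of each member (GRCm38). It was found once in 8 members, with more than 1 match in Pmaip1 and none in Bcl2a1b. The same pattern occurred in 23.9% of 21584 protein-coding genes, and in 10.9% of the 8822 genes of at most 331 codons, the length of the longest member, so a match is a description and not by itself a BH3 domain. The 24 bases from the leucine codon on are given 5′ to 3′ on the coding strand, with capitals on the leucine codon and on the alanine or glycine and aspartate codons, each within 1 coding exon.
Bmf (minus strand, chr2:118545103-118545126): CTTcagtgtattGCAGACcagttc
Bcl2l11 (plus strand, chr2:128147150-128147173): CTGcggcggatcGGAGACgagttc
Bbc3 (plus strand, chr7:16313773-16313796): CTGcggcggatgGCGGACgacctc
Bcl2 (minus strand, chr1:106712578-106712601): CTCcgccgggctGGGGATgacttc
Bcl2l1 (minus strand, chr2:152829700-152829723): CTGagagaggcaGGCGATgagttt
Mcl1 (plus strand, chr3:95659436-95659459): CTGcggcgcgtgGGCGACggcgtg
Bax (minus strand, chr7:45466000-45466023): CTCcggcgaattGGAGATgaactg
Bak1 (minus strand, chr17:27022534-27022557): CTTgctctcatcGGAGATgatatt
In these 8 sequences Bmf and Bbc3 carry an alanine codon before the aspartate codon, and the other 6 carry a glycine codon.

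Depth and cell identity bear on every value below. Total counts were 11606251 to 24320247 per library, and levels are given as CPM, counts scaled to library size with TMM factors, or, where genes are compared with each other, as deposited FPKM, which are also scaled to gene length. Rinl itself was 285 to 299 CPM in WT naive and 32.2 to 34.4 CPM in KO naive libraries, and 437 to 463 against 45.8 to 49.4 CPM in effector libraries, so its counts matched the genotype labels in all 12. The 6 CD4 T cell markers summed to 3980 to 4451 CPM in every group. Summed markers of other cells were not equal between genotypes in naive cells. The 8 B cell markers summed to 2.05 to 3.92 CPM in WT naive and 4.88 to 6.56 CPM in KO naive libraries. The 10 myeloid markers summed to 30.7 to 40.1 and 42.6 to 55.6 CPM. Each B cell marker was low in naive cells, at most 2.46 CPM, and Cd79b, Pax5, Cd22 and Fcer2a overlapped between the naive groups. Within the myeloid list only Lyz2 and Tyrobp were higher in KO naive libraries without overlap. All other genes of that list, among them Csf1r, Itgam, Fcgr3 and Cst3, overlapped between the naive groups. In effector cells both sums overlapped. They were 25.4 to 33.5 against 24.5 to 31.2 CPM for B cell and 43.3 to 68.3 against 54.0 to 76.9 CPM for myeloid markers. Within the B cell list, though, Cd22 was lower in KO effector libraries, at 14.7 to 22.3 against 10.6 to 12.7 CPM. Blk was higher there, at 0.356 to 0.799 against 0.870 to 1.20 CPM, and the other genes of that list overlapped. In effector cells the 5 Treg markers summed to 1251 to 1446 CPM in WT and 1468 to 1710 CPM in KO libraries. The 4 Tfh markers summed to 274 to 353 and 355 to 508 CPM, so these sums nearly met. Of the Treg list Foxp3 and Ctla4 were each higher there in KO libraries, and Ikzf2, Il2ra and Tnfrsf18 overlapped. Of the Tfh list Cxcr5 and Pdcd1 were each higher, and Bcl6 and Il21 overlapped. The 6 NK and NKT cell markers summed to 227 to 238 CPM in WT effector and 147 to 193 CPM in KO effector libraries without overlap. Klrb1c, Klrk1, Zbtb16 and Klrd1 were each lower there in KO libraries. Eomes and Ncr1 overlapped, and the mean of Ncr1 was higher in KO. In naive cells the sum was 19.7 to 21.9 CPM in WT and 17.4 to 19.0 CPM in KO libraries. Klrd1 was lower in naive KO libraries, while Ncr1, Klrb1c, Klrk1 and Zbtb16, all at very low levels, were higher. The part of these marker lists in the results on the members was not tested. In bulk RNA, fewer cells of a type and less RNA per cell cannot be told apart.

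Bmf was the member that fell in KO cells of both kinds. Its protein is a BH3-only sensor that binds the dynein light chain Dynll2 on myosin V motors and is released on detachment or cytoskeletal damage. In naive cells Bmf was 6.63, 7.52 and 5.80 CPM in the 3 WT libraries and 3.11, 3.02 and 3.84 CPM in the 3 KO libraries, from 70 to 140 and 71 to 75 counts. Every KO library lay below every WT library. The log2 fold change was -1.02 ± 0.17 (SE, n = 3 per group, 95% interval -1.37 to -0.68, edgeR quasi-likelihood adjusted p = 0.0016). It did not pass with limma on deposited FPKM, at -0.49 on the log2(FPKM + 1) scale, which understates changes of low genes (limma adjusted p = 0.089), and at -0.90 on the log2(FPKM + 0.1) scale (limma adjusted p = 0.052). In effector cells Bmf was 11.4, 13.3 and 9.55 CPM in WT and 6.26, 4.91 and 7.12 CPM in KO libraries, again without overlap. The log2 fold change there was -0.92 ± 0.15 (SE, n = 3 per group, 95% interval -1.24 to -0.61, edgeR adjusted p = 9.9e-04). The difference between the 2 KO effects was 0.10 ± 0.22 on the log2 scale (95% interval -0.37 to 0.56, edgeR adjusted p = 0.94), so a difference in size between naive and effector cells was not detectable. KO effector and WT naive libraries overlapped, with ranges of 4.91 to 7.12 and 5.80 to 7.52 CPM.

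**Figure D1:**
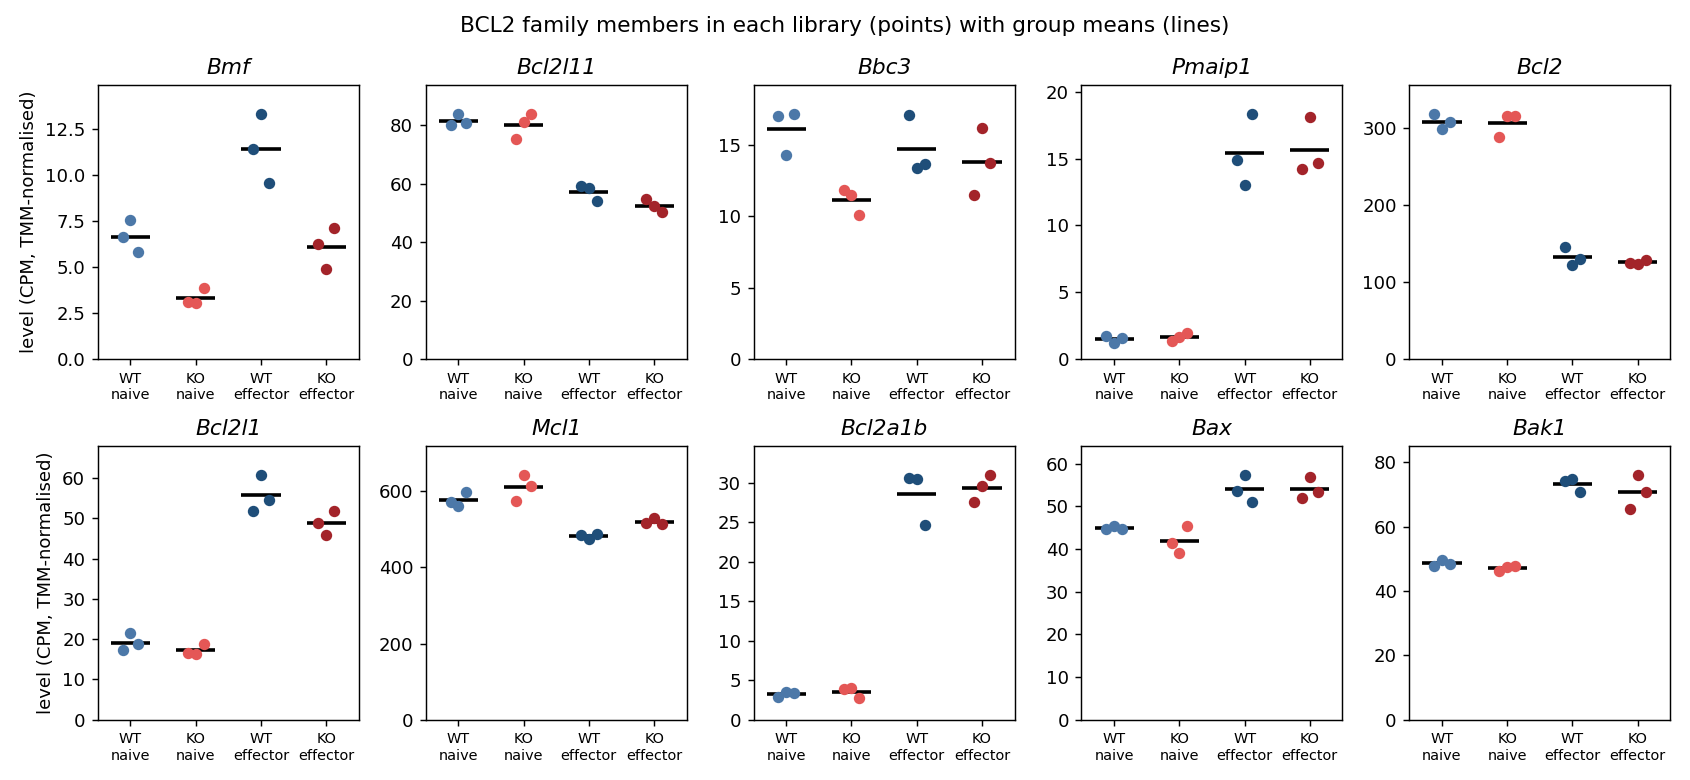
Level of each of the 10 BCL2 family members in CPM after TMM scaling (vertical axes, each from 0 and with its own scale) in the 4 groups; points are libraries and lines are the means of 3 libraries. Bmf points of KO libraries lie below those of WT libraries of the same cell type, and so do those of Bbc3 in naive cells, while in effector cells Bbc3 points of WT and KO overlap.

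Across all 15905 genes, 187 passed in naive cells (1.18%) and 503 in effector cells (3.16%). Of the 10 members, 2 were lower and 0 higher in naive KO cells, where 0.497% of all genes were called lower and 0.679% higher. In effector cells 1 member was lower and 0 higher, beside 1.72% and 1.45% of all genes. None of the 10 passed the test of the difference between the KO effects, which 0.145% of all genes passed (0.0189% higher and 0.126% lower), with edgeR, DESeq2 or limma, and 1 had an unadjusted edgeR p under 0.05, beside 9.19% of all genes. The members whose groups did not overlap numbered 2 in naive cells, where 20.5% of all genes did not overlap, and 3 in effector cells, where the share was 17.9%. The median log2 fold change of the 10 was -0.04 in naive and -0.06 in effector cells, beside 0.00 over all genes in each. The share of members without overlap is near that of all genes in naive cells, and the 8 members other than Bmf and Bbc3 passed in neither cell type.

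Bbc3 encodes PUMA, a BH3-only protein that binds all main pro-survival members and is a known p53 target. In naive cells it was 17.0, 14.3 and 17.2 CPM in WT and 11.8, 11.5 and 10.1 CPM in KO libraries, which did not overlap. The log2 fold change was -0.53 ± 0.12 (SE, n = 3 per group, 95% interval -0.78 to -0.28, edgeR adjusted p = 0.030). In effector cells Bbc3 was 17.1, 13.4 and 13.7 CPM in WT and 11.5, 16.2 and 13.7 CPM in KO libraries, so the groups overlapped and the log2 fold change was -0.09 ± 0.12 (edgeR adjusted p = 0.79). The difference between the 2 effects was 0.44 ± 0.17 on the log2 scale, with an unadjusted edgeR p of 0.020 and an adjusted p of 0.42, so the effects were not shown to differ. The naive call was lost without WT library 1 or 3, or KO library 7, 8 or 9, with edgeR adjusted p of 0.073 to 0.16. It was also lost on log2 of FPKM plus 1 or 0.1 (limma adjusted p of 0.16 and 0.13). Bbc3 and Bax lie on chromosome 7 with Rinl, 12.5 and 16.7 Mb from it, and the part of linked sequence was not tested.

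Bcl2l11 encodes BIM, the BH3-only protein best known for death of T cells on cytokine loss. Its levels were 80.0, 83.7 and 80.8 CPM in WT naive and 75.4, 81.1 and 83.7 CPM in KO naive libraries, and 59.2, 58.4 and 54.1 against 54.7, 52.2 and 50.3 CPM in effector cells. The naive ranges overlapped, and in effector cells the lowest WT library lay just below the highest KO library. The log2 fold changes were -0.03 ± 0.05 in naive (95% interval -0.13 to 0.08) and -0.12 ± 0.06 in effector cells (-0.24 to -0.01), with edgeR adjusted p of 0.90 and 0.28. Pmaip1 encodes NOXA, which mainly binds MCL1 and BCL2A1. It was low in naive cells, at 1.74, 1.18 and 1.58 CPM in WT and 1.38, 1.62 and 1.95 CPM in KO libraries, and its log2 fold changes were 0.13 ± 0.25 and 0.02 ± 0.13 in naive and effector cells, both with groups that overlapped.

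**Figure D2:**
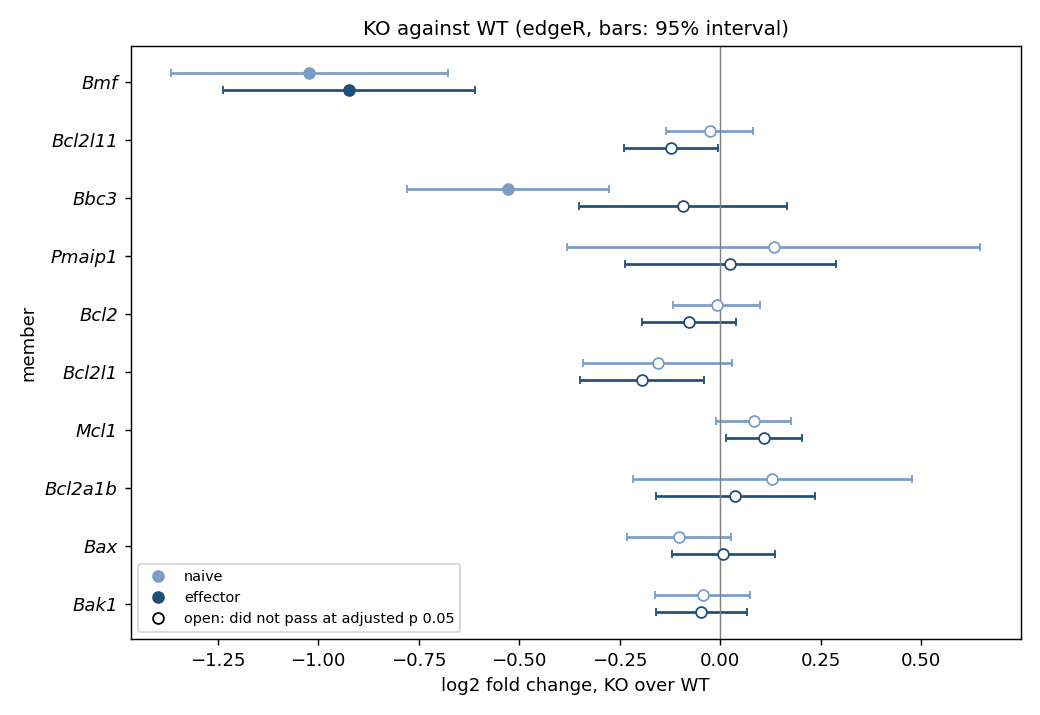
Log2 fold change of KO over WT (horizontal axis) for each member in naive and effector cells, from the edgeR fit across 12 libraries; bars are 95% intervals and filled points passed an adjusted p of 0.05. Bmf passed in both cell types and Bbc3 in naive cells, and the points of the other 8 members lie between -0.19 and 0.13.

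No pro-survival or effector member passed in either KO comparison. Bcl2, the founding pro-survival gene, was 318, 299 and 307 CPM in WT naive and 288, 315 and 316 CPM in KO naive libraries (log2 fold change -0.01 ± 0.05), and 145, 122 and 130 against 125, 123 and 129 CPM in effector cells (-0.08 ± 0.06). Bcl2l1, whose long product is BCL-XL, was 51.8, 60.7 and 54.7 CPM in WT effector and 48.8, 45.8 and 51.8 CPM in KO effector libraries. The lowest WT library and the highest KO library were level at 51.8 CPM without crossing, and the log2 fold change of -0.19 ± 0.07 had an edgeR adjusted p of 0.18. Mcl1, a short-lived pro-survival protein needed by T cells at all stages, was 484, 474 and 489 CPM in WT effector and 517, 530 and 514 CPM in KO effector libraries, without overlap and in the opposite direction, at 0.11 ± 0.05 (edgeR adjusted p = 0.22). In naive cells the log2 fold changes were -0.16 ± 0.09 for Bcl2l1 and 0.08 ± 0.05 for Mcl1, with edgeR adjusted p of 0.54 and 0.50. For the effectors, Bax gave -0.10 ± 0.06 and 0.01 ± 0.06 and Bak1 gave -0.04 ± 0.06 and -0.05 ± 0.05 in naive and effector cells, and WT and KO libraries overlapped in each.

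Bcl2a1b encodes one mouse copy of A1, an inducible NF-kB target. Its log2 fold changes were 0.13 ± 0.17 in naive and 0.04 ± 0.10 in effector cells, but its counts share sequence with near-identical copies and are uncertain. Over the 516 coding bases of GENCODE M21 transcripts, Bcl2a1d differed from Bcl2a1b at 6 positions and Bcl2a1a at 11, which is 98.84% and 97.87% identity. The first 120 coding bases are shown because they hold 7 of the positions that differ among the 3 copies, in capitals.
Bcl2a1b: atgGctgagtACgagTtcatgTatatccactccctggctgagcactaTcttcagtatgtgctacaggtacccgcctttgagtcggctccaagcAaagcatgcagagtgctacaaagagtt
Bcl2a1d: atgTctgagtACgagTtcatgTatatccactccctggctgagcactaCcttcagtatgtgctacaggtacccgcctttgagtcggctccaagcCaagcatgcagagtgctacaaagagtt
Bcl2a1a: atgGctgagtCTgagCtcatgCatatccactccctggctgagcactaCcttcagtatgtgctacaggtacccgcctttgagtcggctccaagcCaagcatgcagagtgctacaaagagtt
Summed over the 3 copies, which is unaffected by a split of reads among them, the level was 6.30 to 7.09 CPM in WT naive and 7.89 to 8.67 CPM in KO naive libraries, and 67.5 to 77.7 against 70.5 to 82.4 CPM in effector cells. The naive sums did not overlap and were not tested. Bcl2a1b also shares its strand with the overlapping gene Gm29094 over 8449 bases, nearly its whole span. Whether reads were shared with Gm29094, which would also bear on the sum of copies, was not tested. Bax shares its strand with Gm45808 over 915 bases, and Bcl2 with Gm37053 over 2087 bases and Mir3473f over 136 bases. Bak1 lies opposite Ggnbp1 over its whole span of 9200 bases, and Bcl2 also lies opposite D630008O14Rik over 33103 bases. Whether the counting used strand was not stated in the labels. No annotated gene overlaps Bmf, Bcl2l11, Bcl2l1, Mcl1, Bbc3 or Pmaip1.

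Between naive and effector cells most of the family differed. In WT cells 6 members rose and 3 fell, beside 30.2% and 25.9% of all genes (56.2% called), and in KO cells 7 rose and 3 fell, beside 31.6% and 26.8% (58.4% called). Of the 10 members, 9 had groups that did not overlap in WT, where 61.5% of all genes did not, and 9 in KO, where 63.9% did not. The median log2 fold change of the members was 0.43 in WT and 0.48 in KO, and over all genes 0.01 in each.

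Among the BH3-only genes, Pmaip1 rose most, from 1.18 to 1.74 CPM in WT naive to 14.9, 13.1 and 18.3 CPM in WT effector libraries, a log2 fold change of 3.37 ± 0.18 (edgeR adjusted p = 9.8e-14). Bmf rose by 0.76 ± 0.15 in WT (edgeR adjusted p = 1.2e-04) and by 0.86 ± 0.17 in KO cells (edgeR adjusted p = 1.3e-04). Bcl2l11 moved the other way, at -0.51 ± 0.05 in WT and -0.61 ± 0.05 in KO cells. Bbc3 was -0.12 ± 0.12 in WT (edgeR adjusted p = 0.42) and rose by 0.31 ± 0.12 in KO cells (edgeR adjusted p = 0.034). That KO call was lost without KO library 8, 9, 11 or 12 (edgeR adjusted p of 0.059 to 0.31) and with DESeq2 (adjusted p = 0.072). It was also lost with limma on log2 of FPKM plus 1 or 0.1 (adjusted p of 0.082 and 0.078). The pro-survival genes moved in opposite directions: Bcl2 fell by 1.22 ± 0.05 on the log2 scale in WT cells and Mcl1 by 0.26 ± 0.05, while Bcl2l1 rose by 1.54 ± 0.08 and Bcl2a1b by 3.13 ± 0.13. The effectors rose less, Bax by 0.26 ± 0.06 and Bak1 by 0.59 ± 0.06. KO values for these 6 genes were -1.29, -0.23, 1.50, 3.03, 0.37 and 0.59 in the same order, and the comparisons of KO with WT share these libraries.

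**Figure D3:**
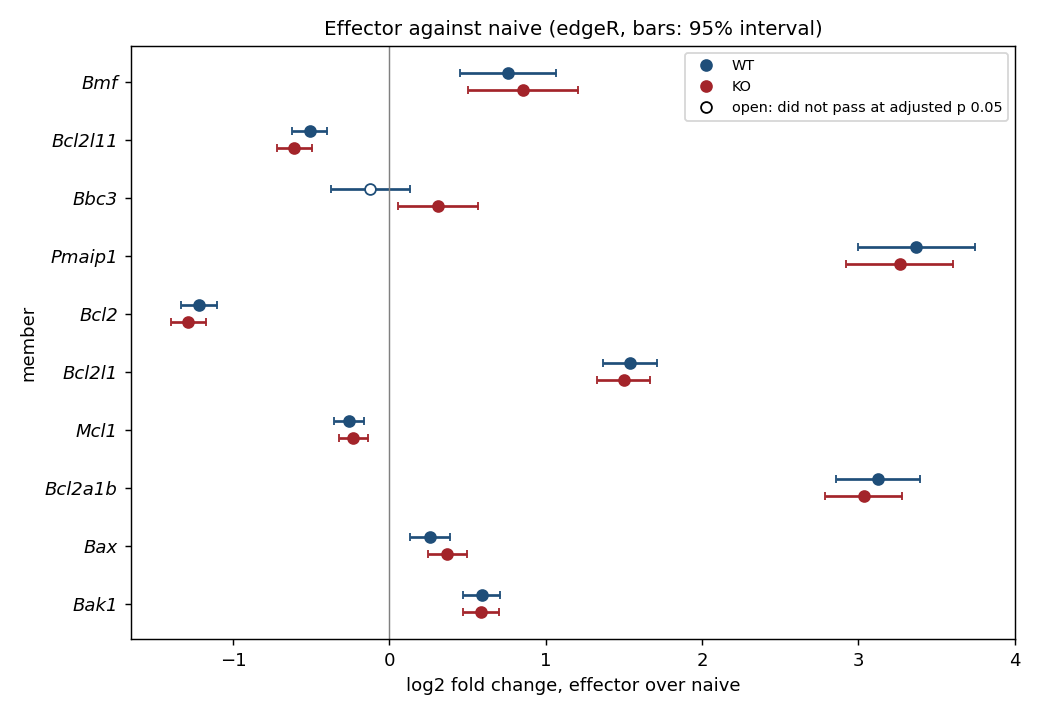
Log2 fold change of effector over naive cells (horizontal axis) for each member in WT and in KO cells, from the edgeR fit; bars are 95% intervals and filled points passed an adjusted p of 0.05. Pmaip1 and Bcl2a1b lie above 3, Bcl2 lies below -1, and Bbc3 in WT is the one open point.

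On the FPKM scale, which allows genes to be set side by side, WT naive cells held Mcl1 at 167 FPKM, then Bax 51.4, Bcl2 33.4, Bak1 20.2, Bcl2l11 11.7, Bbc3 8.84, Bcl2l1 4.89, Bcl2a1b 3.98, Bmf 1.36 and Pmaip1 0.544 FPKM (means of 3 libraries). No neighbours in that order overlapped, and the closest were Bcl2l1 at 4.38 to 5.46 FPKM and Bcl2a1b at 3.50 to 4.30 FPKM. In WT effector cells Mcl1 was 140 FPKM and Bax 61.8, followed by Bcl2a1b at 34.8 and Bak1 at 30.4, which overlapped. Bcl2 at 14.4 and Bcl2l1 at 14.2 FPKM also overlapped, as did Bcl2l11 at 8.24 and Bbc3 at 8.08, and Pmaip1 at 5.60 and Bmf at 2.34 FPKM came last. Bmf thus ranked last in effector cells although it rose. In KO naive cells the order was Mcl1 178, Bax 48.2, Bcl2 33.3, Bak1 19.7, Bcl2l11 11.6, Bbc3 6.12, Bcl2l1 4.42, Bcl2a1b 4.31, Bmf 0.683 and Pmaip1 0.601 FPKM, and both the Bcl2l1 and Bcl2a1b pair and the Bmf and Pmaip1 pair overlapped. In KO effector cells Mcl1 was 152, Bax 62.1, Bcl2a1b 35.8, Bak1 29.5, Bcl2 13.7, Bcl2l1 12.5, Bbc3 7.57, Bcl2l11 7.57, Pmaip1 5.70 and Bmf 1.25 FPKM, and Bbc3 overlapped with both Bcl2l11 and Pmaip1.

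Summed by role, the 4 BH3-only genes reached 22.5 ± 0.58 FPKM (SD, n = 3) in WT naive and 19.0 ± 0.37 FPKM in KO naive libraries, with ranges of 21.8 to 22.9 and 18.5 to 19.2 that did not overlap. In effector cells the sums were 24.3 ± 1.29 and 22.1 ± 1.72 FPKM and overlapped. Bmf made up 6.07% of the BH3-only sum in WT naive and 3.60% in KO naive libraries, and 9.68% against 5.73% in effector cells, while Bcl2l11 held 52.2% and 61.0% in naive cells. Bbc3 held 39.3% in WT naive and 32.3% in KO naive libraries, and most of the lower sum lay in Bbc3, at 8.84 against 6.12 FPKM beside 1.36 against 0.683 FPKM for Bmf. The naive Bbc3 call was lost in 7 of 20 alternatives. Of the sum of the 4 pro-survival members, Mcl1 took 79.8% in WT naive and 68.9% in WT effector libraries, and Bcl2a1b took 1.90% and 17.1%. These shares leave out other pro-survival genes, among them the copies Bcl2a1d and Bcl2a1a. In WT naive libraries these copies were 2.68 to 3.38 and 0.706 to 0.826 FPKM. In WT effector libraries they were 42.4 to 47.4 and 7.16 to 8.75 FPKM, beside 30.0 to 37.3 FPKM for Bcl2a1b. The sums were given as a description, without a test.

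**Figure D4:**
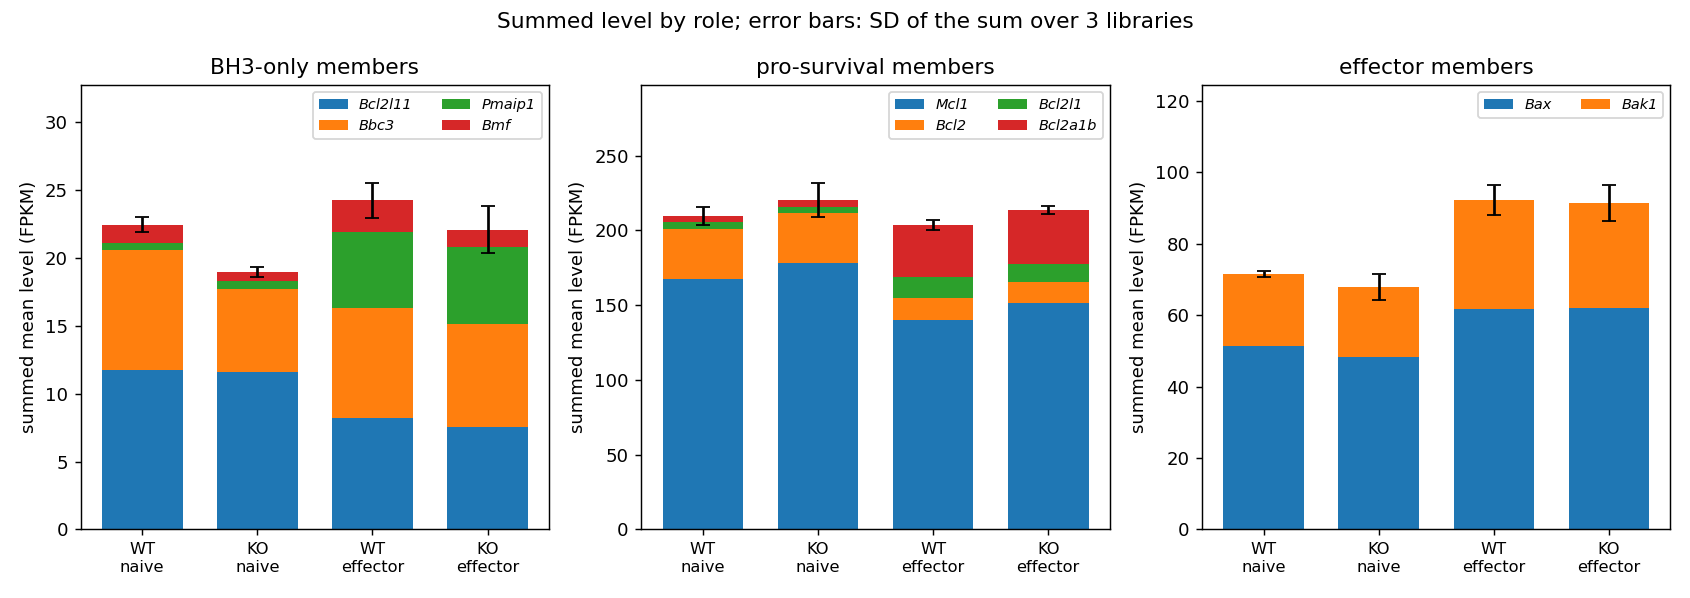
Summed mean level in FPKM (vertical axes from 0) of the BH3-only, pro-survival and effector members in the 4 groups; coloured parts are the members and error bars are the SD of the sum over 3 libraries. The BH3-only bar of KO naive cells is the lowest of its panel at 19.0 FPKM. For the 4 genes summed, the pro-survival bars differ in make-up more than in height. They leave out Bcl2a1a and Bcl2a1d, and Bcl2a1d was 2.68 to 3.38 FPKM in WT naive and 42.4 to 47.4 FPKM in WT effector libraries.

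Pairs of members were also read as a ratio of FPKM within each library, over 5 ratios in each cell type: Bmf over Bcl2, Bcl2l11 over Bcl2 and Bcl2l11 over Mcl1 set a BH3-only gene against a pro-survival gene, Bax over Bcl2 an effector against a pro-survival gene, and Bmf over Bcl2l11 compares a pair of BH3-only genes. Bmf over Bcl2 was 0.0357 to 0.0475 in WT naive and 0.0181 to 0.0230 in KO naive libraries, a log2 difference of -0.99, and 0.139 to 0.205 against 0.0756 to 0.104 in effector cells, a difference of -0.84. Bmf over Bcl2l11 differed by -0.98 and -0.78, and Bcl2l11 over Mcl1 by -0.24 in effector cells. In these 5 cases WT and KO libraries did not overlap, and the exact two-sided permutation p was 0.1, the smallest that 3 against 3 allows, with an adjusted value of 0.2 over the 10 tests. The other 5 ratios overlapped, among them Bcl2l11 over Bcl2 (-0.02 in naive and -0.06 in effector cells) and Bax over Bcl2 (-0.09 and 0.08).

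Bmf and Bbc3 both fell in naive KO cells, so the 250 bases before their RefSeq start (GRCm38.p6, the start nearest to the start of the gene in the deposited table) are shown. The Bmf window borders the start of its gene in that table. The Bbc3 window lies inside the span of its gene there, which starts at position 16308393, so the 2 windows are not placed alike. Both strands were searched for the FOXO core GTAAACA and the GC box GGGCGG, overlapping matches each being counted, and matches are in capitals. The windows of 32851 RefSeq starts held them in 3.2% and 32.7% of cases. Bmf held neither motif, and Bbc3 held 5 GC boxes, of which the last pair overlap.
Bmf (minus strand, chr2:118549687-118549936): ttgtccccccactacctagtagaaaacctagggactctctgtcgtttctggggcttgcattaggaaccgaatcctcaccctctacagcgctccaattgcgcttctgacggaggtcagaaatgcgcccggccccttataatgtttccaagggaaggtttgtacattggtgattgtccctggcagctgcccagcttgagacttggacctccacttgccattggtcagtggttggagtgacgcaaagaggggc
Bbc3 (plus strand, chr7:16309333-16309582): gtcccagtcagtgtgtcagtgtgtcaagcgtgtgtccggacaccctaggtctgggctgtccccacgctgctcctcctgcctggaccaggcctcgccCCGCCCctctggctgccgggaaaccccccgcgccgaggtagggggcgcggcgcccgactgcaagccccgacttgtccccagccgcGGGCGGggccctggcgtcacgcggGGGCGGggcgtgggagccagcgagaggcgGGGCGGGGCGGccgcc
The 2 windows differed in base composition, with 54.0% G and C for Bmf and 76.4% for Bbc3. Of the 9 members with an entry, only Bcl2l11 held GTAAACA, once. These matches describe the letters in the windows.

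Genes around the family are given by list, beside 1.18% of all genes called in naive and 3.16% in effector cells. Counts of 0 or 1 in lists this short cannot be told from those shares. Of 12 tested other BCL2 family genes, 0 passed in naive cells with edgeR, DESeq2 or limma (2 at an unadjusted edgeR p under 0.05) and 1 in effector cells, where Bik, a BH3-only gene of the endoplasmic reticulum, was 5.57 ± 0.15 CPM (SD, n = 3) in WT and 3.49 ± 0.49 CPM in KO libraries, which did not overlap (log2 fold change -0.68 ± 0.18, edgeR adjusted p = 0.040). The Bik call was lost without WT library 4, 5 or 6, without KO library 9, 11 or 12, and with DESeq2. It was also lost with only the groups compared and with limma on log2 of FPKM plus 0.1. Of the 17 apoptosome and caspase genes 0 passed with edgeR, DESeq2 or limma in either cell type, and 2 in each had an unadjusted edgeR p under 0.05. Of the 13 mitochondrial outer membrane partners 0 passed with these tools, with 1 and 2 at an unadjusted p under 0.05. Of the 12 tested transcription factors of BH3-only genes, their regulators and their targets 0 passed with edgeR or limma, 3 and 1 had an unadjusted edgeR p under 0.05, and DESeq2 called Cdkn1b, a cell cycle inhibitor, lower in naive KO cells and Myc lower in effector KO cells, both named after their values were seen. By count, 1 of 9 death receptor genes passed, in effector cells: Fasl, the ligand of the receptor Fas, was 36.2, 39.6 and 39.2 CPM in WT and 31.9, 25.6 and 28.7 CPM in KO libraries (-0.42 ± 0.09, edgeR adjusted p = 0.0073). This call was lost without KO library 11 (edgeR adjusted p = 0.077) and on log2 of FPKM plus 1 or 0.1 (limma adjusted p of 0.060 and 0.11). The summed NK and NKT cell markers were lower in the same KO libraries (147 to 193 against 227 to 238 CPM), though not each marker, and their part in the result was not tested. Of 9 tested cytoskeletal and degradation partners 1 passed, in naive cells: Dynll1, the light chain that holds BIM, was 36.1, 42.6 and 43.7 CPM in WT and 53.4, 53.0 and 52.7 CPM in KO libraries (0.38 ± 0.09, edgeR adjusted p = 0.044). This call was lost without library 1, 2, 6, 7, 8, 9 or 12, and with limma on log2 of FPKM plus 1 or 0.1.

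The survival cytokine pathway, whose signals keep BIM low and BCL2 high in T cells, had the most calls of the lists. With edgeR 2 of 16 genes rose and 2 fell in naive cells, where 1.18% of all genes passed, and 1 rose and 1 fell in effector cells, where 3.16% passed. DESeq2 called 5 and 2, the fifth naive gene being Stat5a, a transcription factor of these receptors that was named after its values were seen. Limma-voom called 4 and 1, and limma called 1 and 1 on log2 of FPKM plus 1 and 1 and 0 on log2 of FPKM plus 0.1. Il7r, the receptor chain for IL-7, was 740, 595 and 724 CPM in WT naive and 462, 494 and 480 CPM in KO naive libraries (log2 fold change -0.52 ± 0.10, edgeR adjusted p = 0.025), and 609, 494 and 527 against 446, 381 and 387 CPM in effector cells (-0.42 ± 0.10, edgeR adjusted p = 0.037). KO libraries lay below WT libraries in both. Cish, a feedback inhibitor induced by STAT5, went up, from 25.1, 26.4 and 26.9 to 33.5, 33.3 and 39.0 CPM in naive cells (0.43 ± 0.07, edgeR adjusted p = 0.0017) and by 0.32 ± 0.06 in effector cells (edgeR adjusted p = 0.0028). Il2rb, the chain shared by the IL-2 and IL-15 receptors, rose by 0.30 ± 0.06 in naive cells, and Pim1, a STAT5-induced kinase, fell by 0.20 ± 0.04. The Il7r call was lost in naive cells without library 1, 3, 7, 8 or 9 and in effector cells without library 6, 7, 8, 9, 11 or 12. The naive Il2rb call was lost without library 1, 2, 8 or 9 and that of Pim1 when any 1 of the 6 naive libraries was left out. With limma on log2 of FPKM plus 1 or 0.1, Il7r passed in neither cell type, and Il2rb and Pim1 did not pass in naive cells. The summed Treg markers, which include Il2ra, were higher in KO than WT in both cell types, though not each marker. The sums were 175 to 193 against 206 to 219 CPM in naive and 1251 to 1446 against 1468 to 1710 CPM in effector cells. Il2ra, Ikzf2 and Tnfrsf18 overlapped between genotypes in effector cells, and Ctla4 overlapped in naive cells. The part of the Treg markers in these results was not tested.

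From naive to effector WT cells these lists had more calls, beside 56.2% of all genes called, 30.2% higher and 25.9% lower. The shares called in the caspase, outer membrane and death receptor lists were at or below that of all genes. Of the 12 other BCL2 family genes 8 rose and 3 fell, led by Bcl2a1d at 3.80 ± 0.12 and Bcl2a1a at 3.30 ± 0.22 on the log2 scale. Of the 17 apoptosome and caspase genes 7 rose and 2 fell. Of the 9 death receptor genes 3 rose and 2 fell: Fasl rose by 2.62 ± 0.11 and Cflar, which blocks caspase-8, fell by 0.26 ± 0.05. Of the 16 survival cytokine genes 8 rose and 5 fell, and Il2rb rose by 3.76 ± 0.06 and Cish by 2.00 ± 0.07. Among the 9 cytoskeletal and degradation partners 5 rose and 3 fell, and Dynll2, the light chain bound by BMF, rose by 0.44 ± 0.07 and Myo5a, the myosin V heavy chain, by 0.39 ± 0.07. Of the 13 mitochondrial outer membrane partners 2 rose and 4 fell, and Mfn2 rose by 0.27 ± 0.05 and Vdac3 fell by 0.31 ± 0.07. Of the 12 transcription factors, regulators and targets 5 rose and 3 fell. Foxo1, a FOXO transcription factor, fell by 0.92 ± 0.04, and Cdkn1a, a p53 target, rose by 3.75 ± 0.40 from a mean of 0.207 CPM.

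The genes most like Bmf were sought over 10995 genes with a mean of at least 5 CPM, by Pearson r of log2 CPM over the 12 libraries. Tmem59 (r = 0.95), Dnajc8 (0.95), Odr4 (0.92), Rexo5 (0.92) and Ech1 (0.92) led, and these libraries share cell type and genotype. After the mean of each cell type was removed, H3f3b (0.97), Pmm2 (0.95), S1pr1 (0.95), Rinl (0.93) and Col11a2 (0.93) led. Since Bmf was itself lower in every KO library, this ranking favours genes that are lower in KO, and Rinl is the deficient gene. That all 5 were lower in KO without overlap in both cell types thus follows largely from the selection. S1pr1 was 794 to 828 against 690 to 706 CPM in naive and 337 to 342 against 282 to 295 CPM in effector cells. Pmm2 did not pass in naive cells (edgeR adjusted p = 0.33). The r values describe shared patterns and carry no test.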

How the data were processed

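Stranded mRNA libraries were prepared from RNA of the sorted cells, per the labels' protocols. The deposited count table holds whole-number raw counts per gene, and the deposited FPKM table equals these counts divided by a gene length and a size factor per library (largest relative deviation 1.2e-15 over 11921 genes with at least 20 counts in every library). The submitters' processing notes list STAR, Picard, DESeq2 1.30.0, mm10 and GRCm38 without roles. The counting program and its strand setting: not given in the sources used here. Columns show group and library number (WT naive 1 to 3, WT effector 4 to 6, KO naive 7 to 9, KO effector 10 to 12).

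In R 4.3.3, edgeR 4.0.16 was run with TMM scaling, filterByExpr by group and a robust quasi-likelihood fit of all 12 libraries (biological coefficient of variation 5.21%, factors 0.968 to 1.04). P-values were adjusted by Benjamini-Hochberg over 15905 genes at 0.05; standard errors came from the fold change and F statistic. Alternatives were DESeq2 1.42.0, limma 3.58.1 (voom, and log2 of FPKM plus 1 or 0.1), DESeq2 size factors, other filters, only the groups compared and leaving out each library. Named were all 10 members, Rinl, up to 4 genes per list passing in a KO comparison, up to 2 in WT effector against naive, and the 5 genes most like Bmf; some genes this rule names are not reported here. The members and lists were chosen with earlier results of these data known. Of the lists' genes, Ddit3 had no unique row. The BH3 pattern was searched in coding DNA of GENCODE M21 (GRCm38), as no protein table was used here; promoters were from RefSeq (9 of 10 members matched).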

Additional observations from a re-analysis of the deposited data

Results flagged for a closer look

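Il2rb was the one gene of the lists whose KO effect differed between cell types by a test of the difference itself. It was 84.2, 83.0 and 95.9 CPM in WT naive and 102, 110 and 110 CPM in KO naive libraries, and 1177, 1229 and 1148 against 1096, 1136 and 995 CPM in effector cells. The difference of the KO effects was -0.44 ± 0.08 on the log2 scale (SE, edgeR interaction contrast, adjusted p = 0.019), with all 3 KO libraries above WT in naive cells and all 3 below WT in effector cells. The KO effect in effector cells alone, -0.14, did not pass (edgeR adjusted p = 0.19). The call on the difference was lost without WT library 2 or KO library 8 or 9 (adjusted p of 0.065 to 0.11) and with limma on log2 of FPKM plus 1 or 0.1 (adjusted p of 0.15 and 0.20). The summed NK and NKT cell markers were also lower in KO effector libraries (147 to 193 against 227 to 238 CPM), though not each marker, and their part in this result was not tested. Over all genes, 0.145% passed this contrast, and none of the 10 BCL2 family members did.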

How the results depend on the processing

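No paired analysis was possible because the columns carry library numbers 1 to 12 that do not match the replicate numbers in the titles, so no replicate block could be fitted. The Bmf effect was called in 20 of 20 alternatives in effector cells and in 18 of 20 in naive cells; it was -0.49 (limma adjusted p = 0.089) with log2 of FPKM plus 1 and -0.90 (limma adjusted p = 0.052) with FPKM plus 0.1. In effector cells the Bmf value ranged from -1.04 to -0.57. Bbc3 in naive cells was called in 13 of 20. Members called in naive cells numbered 2, 1 to 2 when a library was left out, and 0 with each FPKM fit. All genes called in naive cells (187) became 501 without a filter, 528 with only the groups compared, 40 and 57 with FPKM plus 1 and 0.1, and 66 to 255 when a library was left out. In effector cells 503 became 959, 230, 262, 139 and 194 to 662 in the same order. The difference of the KO effects (23) became 277 without a filter, 52 with DESeq2, 13 and 8 with FPKM plus 1 and 0.1, and 10 to 85 when a library was left out. These counts moved by over 1.5 times without library 2, 7, 8 or 9 in naive cells, without library 5, 6 or 11 in effector cells, and without library 2, 4, 6, 7, 8, 9, 10 or 12 for the difference. The cause was not tested. By Spearman's rho, 2 and 1 of the 5 genes most like Bmf were shared, over all libraries and within cell types.

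Leaving out 1 library turned the sign of some effects near 0, none of them called. In naive cells the log2 fold changes ranged from -0.0496 to 0.0253 for Bcl2l11, -0.0224 to 0.0442 for Bcl2 and -0.0237 to 0.292 for Pmaip1. In effector cells they ranged from -0.0605 to 0.0949 for Bcl2a1b, -0.0332 to 0.0518 for Bax, -0.108 to 0.0107 for Bak1, -0.244 to 0.0339 for Bbc3 and -0.104 to 0.172 for Pmaip1. Differences of the KO effects ranged from -0.0163 to 0.251 for Bmf (-0.0799 with FPKM plus 1), -0.126 to 0.0041 for Bcl2, -0.148 to 0.031 for Bcl2l1, -0.0288 to 0.0519 for Mcl1, -0.0639 to 0.0545 for Bak1 and -0.271 to 0.045 for Pmaip1. Counts of 70 to 186 per library limited the precision for Bmf.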
